A study of Huso dauricus with 9 samples.

Results

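Mucus lines the gut as a gel that keeps food, microbes and parasites away from the epithelium. Goblet cells, which are secretory cells of that epithelium, make gel-forming mucins, a family that includes MUC2, MUC5AC and MUC5B. These are very long proteins that are cross-linked through cysteine-rich domains and packed into granules. AGR2 is a protein of the endoplasmic reticulum needed for mucin folding in mouse gut, FCGBP is a mucus protein built of von Willebrand factor-like domains, MUC13 is a mucin anchored in the cell membrane, and SPDEF is a transcription factor that drives goblet cell maturation in mouse. These 7 genes were followed in the gut of kaluga sturgeon (Huso dauricus), a large migratory fish reared in hatcheries and released into its home rivers. Members were all transcript rows of the assembled transcriptome whose Swiss-Prot gene name, Swiss-Prot entry name or KEGG gene name was one of the 7 symbols. There were 25 such rows among 59331, namely 3 for MUC2, 1 for MUC5AC, 3 for MUC5B, 2 for MUC13, 6 for AGR2, 9 for FCGBP and 1 for SPDEF.

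Gut RNA was sequenced from fish recaptured at random after release into a river, 3 fish and 3 libraries in each group. The groups are Ori (day 0), D14FL (day 14) and D30FL (day 30), and all fish came from the same release of dye-marked animals. The samples hold no unreleased fish of the later days. Time after release, season, diet and library preparation therefore cannot be told apart. Each library is another fish, whatever its replicate number.

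Long mucins are hard to assemble, and the rows are best read as pieces. The names given to pieces of gel-forming mucins were not settled by the annotation. MUC2 row DN32938_c0_g1 shared 699 of 1197 aligned residues (58.4%) with its KEGG match, DN38261_c0_g1 shared 399 of 804 (49.6%) and DN32305_c0_g2 shared 292 of 525 (55.6%). All 3 carry von Willebrand factor type D and C8 domains and match Mucin-2 of the sterlet, another sturgeon. A sterlet protein of some kind was the best match of 8 of the 25 rows in the non-redundant protein database. MUC5B rows DN19426_c0_g1 and DN34198_c0_g5 carry that name by their Swiss-Prot entry, but their KEGG name is MUC2 and their best protein match is a mucin-2-like protein of a frog. Their KEGG alignments were short, with 32 of 49 and 60 of 109 residues shared, over a cysteine-rich repeat (WxxW) that gel-forming mucins have in common. A non-member row that the assembler placed in the cluster of DN34198_c0_g5, DN34198_c0_g2, has Mucin-2 of the sterlet as its best protein match. Which gel-forming mucin the 2 rows belong to cannot be told from this, and MUC5B is below only their Swiss-Prot name. The MUC5AC row DN38597_c0_g1 has Mucin-5B of the sterlet as its best protein match, with 67 of 160 residues shared in KEGG. Among the FCGBP rows, DN26336_c0_g2 has a lipid kinase subunit as its best protein match but carries von Willebrand factor type D and C8 domains. The best protein match of DN35745_c0_g4 is an unnamed protein of a shark.

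Levels are the FPKM that the authors deposited (fragments per kilobase, adjusted for the size of the library). The read depth behind them is unknown, and a value of exactly 0 is described as listed at 0. Changes were tested with limma on log2(FPKM + 1) over the 54200 rows that reached 1 FPKM in 3 or more libraries, and a row was called changed at a Benjamini-Hochberg adjusted p under 0.05, two-sided. Nothing says more about the replicates than that they are different fish, so p-values measure the spread between those fish. The median log2 change of all tested rows was 0.38 for D14FL against Ori, 0.37 for D30FL against Ori and -0.00464 for D30FL against D14FL. Every log2 change below is given after subtraction of that median, with its standard error (SE), while calls and p-values come from the change before subtraction. On this scale the change of a row with few FPKM is understated.

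The libraries were uneven in ways that touch the mucus genes. D30FL 3 correlated with the Ori libraries at 0.826 to 0.853 over log2 values of the tested rows, and with the other D30FL libraries at 0.711 to 0.865, while D30FL 2 correlated with Ori at 0.616 to 0.647. Transcript rows are not independent replicates, so these values describe the libraries only. The Ori libraries were also narrower in breadth, with 35812 to 41584 rows at 1 FPKM or more, against 42228 to 49503 in the later libraries. They had 28.0% to 36.1% of the FPKM in their 100 highest rows, against 22.2% to 27.1% later. Ori 1 was the extreme, with 35812 rows and 36.1%. Ori 3, with 41584 rows and 28.0%, lay close to D30FL 3, with 42228 rows and 27.1%. Between 3929 and 6173 rows were listed at 0 in Ori libraries, most of all in Ori 1, against 1857 to 3558 in later ones. The part of this in the higher values of low rows in later fish was not tested. Summed markers of gut epithelium (7 of 11 found, none at 0) came to 423 to 596 FPKM in Ori, 452 to 501 FPKM in D14FL and 511 to 523 FPKM in D30FL. Markers of absorptive enterocytes (7 of 12 found) summed to 410.0 to 1985 FPKM in Ori, 1648 to 1965 FPKM in D14FL and 1514 to 1806 FPKM in D30FL. The low Ori value was that of Ori 1 alone, with Ori 2 at 1433 FPKM and Ori 3 at 1985 FPKM. Pancreas markers (4 of 11 found) moved with time, at 59.3 to 104 FPKM in Ori, 385 to 3775 FPKM in D14FL and 841 to 2032 FPKM in D30FL. Stomach markers (3 of 8 found) overlapped between groups, and ATP4A was at 0 in all Ori libraries and in 4 of the 6 later ones. Sums of smooth muscle markers (6 of 8 found) and immune cell markers (6 of 8 found) overlapped between the groups, and none of 5 markers of ciliated or squamous epithelium was found. For smooth muscle Ori 1 was the lowest library, at 8.51 FPKM, with Ori 2 at 332 FPKM and Ori 3 at 99.6 FPKM. The part of this varying tissue makeup in the mucus results was not tested. In bulk gut, fewer goblet cells and less RNA per goblet cell cannot be told apart.

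Rows of AGR2, MUC13 and MUC2 were abundant in the gut of every fish. The highest member, AGR2 row DN28913_c1_g1, averaged 266 FPKM over the 9 libraries, followed by MUC13 row DN33197_c0_g3 at 163 FPKM and MUC2 rows DN32305_c0_g2 at 82.0 FPKM and DN38261_c0_g1 at 74.2 FPKM. These levels are per length of transcript. The 2 MUC2 rows overlapped in range and cannot be ordered. SPDEF averaged 10.3 FPKM, with 1.37 to 2.58 FPKM in the Ori fish. In all, 12 rows averaged more than 10 FPKM and 5 averaged less than 1 FPKM, among them the MUC5AC row.

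Of the 22 member rows tested, 2 were called higher and none lower in D14FL than in Ori, which is 9.09% higher against 2.17% of all tested rows (lower, 0.600%). The members were chosen with earlier results of these data known, so shares of them only describe the set. Of all rows called, 78.3% were higher at day 14 with the values as deposited and 40.5% under median-of-ratios scaling, so the direction of the background rests on the scaling. At an unadjusted p under 0.05 were 10 member rows (45.5%, with 23.1% of all tested rows). Several of the 10 share the symbol MUC5B or AGR2 and are not independent, and those of AGR2 went in both directions. The 2 rows called at an adjusted p under 0.05 were a MUC5B-annotated row and 1 of the 6 AGR2 rows. In D30FL against Ori no member row was called by limma, where 3.22% of all tested rows were (higher, 2.49%, and lower, 0.732%), and 6 member rows (27.3%) had an unadjusted p under 0.05, with 24.0% of all tested rows. Between D30FL and D14FL no member row was called either, with 1 at an unadjusted p under 0.05 (4.55%, with 3.84% of all tested rows) and 0.00185% of all tested rows called. The median change of the tested member rows was 0.38 log2 units for D14FL against Ori, -0.12 for D30FL against Ori and -0.22 for D30FL against D14FL, where that of all tested rows is 0 by the subtraction. Of the 22 tested rows, MUC2 row DN32938_c0_g1 and FCGBP row DN22717_c0_g1 had no Ori library at 1 FPKM or more, as had 12.6% of all tested rows, so they passed the filter only through the later fish and had to be higher in at least 3 of them. Both DN32938_c0_g1 and DN22717_c0_g1 are among the 10 rows counted by unadjusted p at day 14, and DN22717_c0_g1 is among the 6 at day 30. The 3 rows not tested were DN38597_c0_g1 of MUC5AC and DN43448_c0_g1 and DN45021_c0_g1 of FCGBP.

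**Figure D1:**
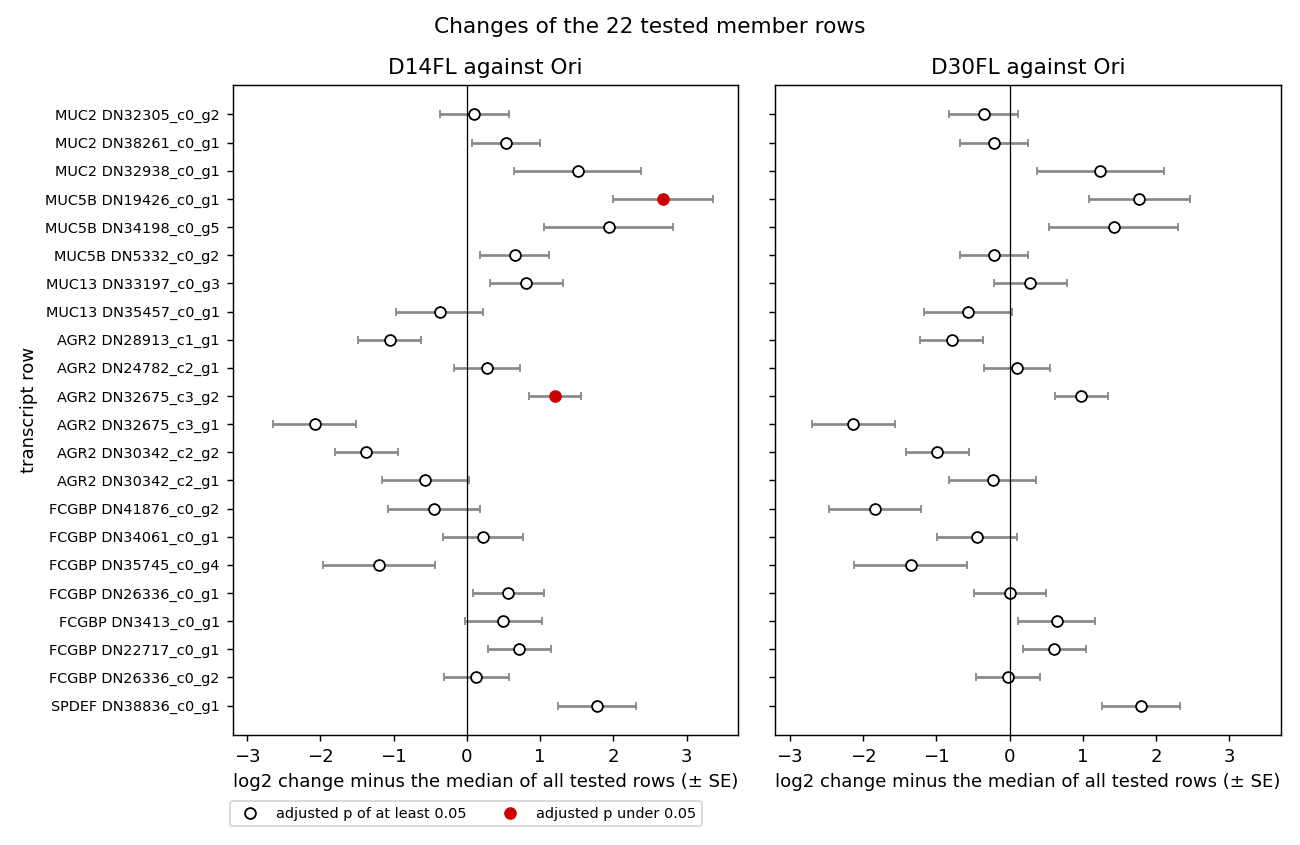
Log2 change of each of the 22 tested transcript rows, after subtraction of the median of all tested rows, with its standard error, for D14FL against Ori (left) and D30FL against Ori (right). Filled points have an adjusted p under 0.05: MUC5B row DN19426_c0_g1 at 2.68 and AGR2 row DN32675_c3_g2 at 1.21, both for D14FL against Ori.

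The main MUC2 transcripts, pieces of the chief gel-forming mucin of the mammalian intestine, were not called at either time. MUC2 row DN32305_c0_g2 had 102, 36.5 and 81.7 FPKM in Ori, 75.1, 82.5 and 136 FPKM in D14FL, and 111, 37.8 and 75.4 FPKM in D30FL. MUC2 row DN38261_c0_g1 had 103, 33.0 and 40.2 FPKM in Ori, 139, 58.7 and 116 FPKM in D14FL, and 64.2, 40.4 and 73.7 FPKM in D30FL. For both rows the 3 groups overlapped, and the fish within Ori differed among themselves by more than the group means did. For D14FL against Ori the change was 0.10 (SE 0.47, limma adjusted p = 0.544) for DN32305_c0_g2 and 0.53 (SE 0.46, limma adjusted p = 0.256) for DN38261_c0_g1. For D30FL against Ori the values were -0.35 and -0.22, and before subtraction of the median 0.02 and 0.16, so their sign rests on the scaling. Within a library DN32305_c0_g2 stood at 0.542 to 2.03 times DN38261_c0_g1.

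The third MUC2 row, DN32938_c0_g1, was low and patterned differently. It had 0.39, 0.06 and 0.51 FPKM in Ori, 3.36, 1.46 and 9.69 FPKM in D14FL, and 1.40, 19.6 and 0.29 FPKM in D30FL. All D14FL fish were above all Ori fish, while the D30FL fish spread from the Ori level to the highest value of all. As it passed the filter only through those fish, its separation from Ori is partly set by the filter. The change for D14FL against Ori was 1.51 (SE 0.87, limma adjusted p = 0.216), and it was not called. For D30FL against Ori it was 1.24 with all fish and 0.15 without D30FL 2.

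MUC5B-annotated row DN19426_c0_g1, a short piece of a gel-forming mucin, rose by day 14. It had 3.58, 2.97 and 3.65 FPKM in Ori, 33.7, 21.7 and 61.2 FPKM in D14FL, and 13.6, 71.0 and 5.94 FPKM in D30FL. The lowest D14FL fish was far above the highest Ori fish, and all D30FL fish were above Ori too, by widely different amounts. DN19426_c0_g1 averaged 38.9 ± 20.3 FPKM in D14FL, against 3.40 ± 0.376 FPKM in Ori (SD, n = 3 each), a change of 2.68 (SE 0.69, limma adjusted p = 0.0415). For D30FL, at 30.2 ± 35.6 FPKM, against Ori the change was 1.77 (SE 0.69, limma adjusted p = 0.0967) and was not called. The day 14 call was lost without any one of the Ori or D14FL libraries or D30FL 1 (adjusted p 0.0600 to 0.124), and under median-of-ratios scaling (adjusted p = 0.0640). The day 30 change was 2.43 (adjusted p = 0.0208) without D30FL 3, the D30FL library nearest to Ori, and 0.92 (adjusted p = 0.214) without D30FL 2.

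MUC5B-annotated row DN34198_c0_g5, which has the same repeat domain, had 0.15, a value near 0 and 1.84 FPKM in Ori, 6.82, 2.00 and 16.4 FPKM in D14FL, and 3.47, 19.5 and 0.49 FPKM in D30FL. All D14FL fish were again above all Ori fish, narrowly for D14FL 2, and D30FL overlapped Ori. The change was 1.94 (SE 0.88, limma adjusted p = 0.151) for D14FL against Ori. DN19426_c0_g1, DN34198_c0_g5 and MUC2 row DN32938_c0_g1 had the same fish at the top, D30FL 2 highest and D14FL 3 next. FCGBP rows DN3413_c0_g1 and DN22717_c0_g1 had these fish in the same order, so it was not particular to the mucin rows. Whether the 3 mucin rows are pieces of 1 mucin was not tested, as no sequence was used here. MUC5B row DN5332_c0_g2, which has a cystine-knot domain and matches Mucin-5B of the sterlet, had 1.12, 0.19 and 0 FPKM in Ori, 3.64, 1.41 and 0.95 FPKM in D14FL, and 0.89, 0.11 and 0.67 FPKM in D30FL. It was the only member row whose D30FL fish all lay below the D14FL fish (4.55% of the tested rows, with 4.46% over all rows), and the change of -0.87 (SE 0.47) was not called.

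The MUC5AC row DN38597_c0_g1, named for the gel-forming mucin of mammalian stomach and airway, was near the bottom of the range. It had 0.30, 0 and 0 FPKM in Ori, 1.09, 1.49 and 0.46 FPKM in D14FL, and 0.82, 0 and 0.48 FPKM in D30FL. The D14FL fish were above the Ori fish, of which 2 were listed at 0. It did not pass the filter and was not tested.

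**Figure D2:**
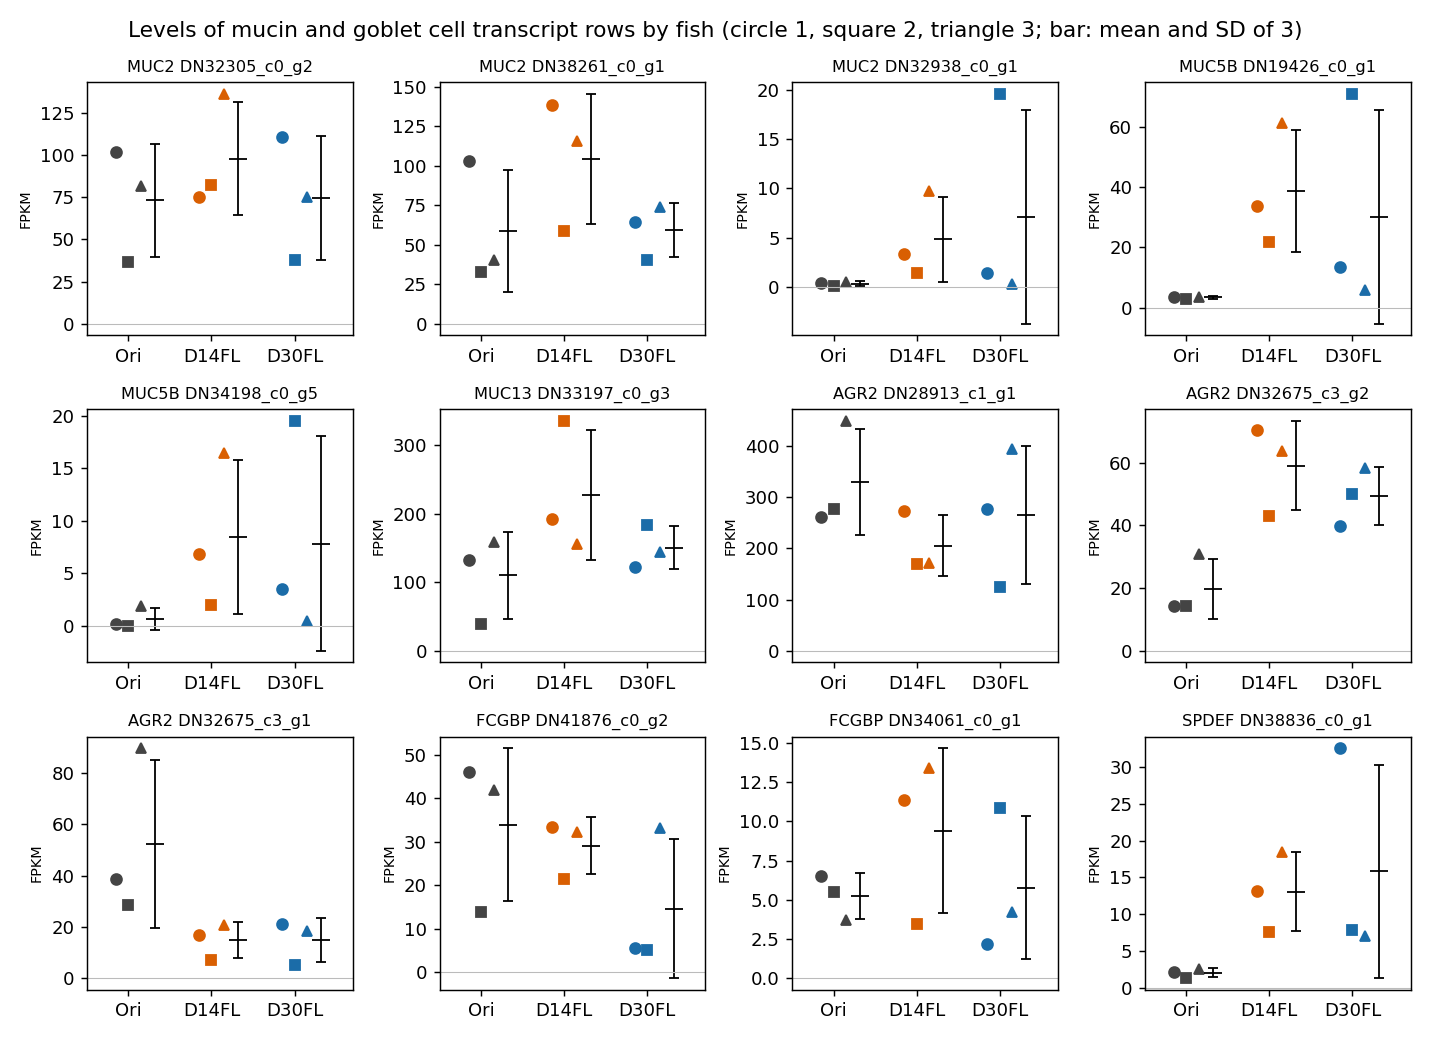
FPKM of 12 mucin and goblet cell transcript rows in each of 9 fish, by group (Ori, D14FL and D30FL; circles, squares and triangles are replicates 1, 2 and 3), with the mean and SD of each group as a bar. MUC5B row DN19426_c0_g1 lies between 2.97 and 3.65 FPKM in Ori and between 21.7 and 61.2 FPKM in D14FL, while the groups of MUC2 rows DN32305_c0_g2 and DN38261_c0_g1 overlap.

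MUC13, the membrane-anchored mucin of the epithelial surface, was not called in any comparison. Row DN33197_c0_g3 had 133, 38.9 and 159 FPKM in Ori, 193, 335 and 156 FPKM in D14FL, and 122, 184 and 145 FPKM in D30FL. D14FL 2 was the highest and Ori 2 the lowest, and D14FL 3 lay within the Ori range. Its change was 0.81 (SE 0.49, limma adjusted p = 0.180) for D14FL against Ori and 0.28 for D30FL against Ori. Row DN35457_c0_g1 had 38.4, 23.0 and 13.5 FPKM in Ori, 10.6, 63.6 and 17.7 FPKM in D14FL, and 23.1, 11.7 and 28.6 FPKM in D30FL, with groups that overlapped. D14FL 2 was the highest library for both MUC13 rows.

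The 6 AGR2 rows did not move together. The most abundant, DN28913_c1_g1, had 261, 278 and 448 FPKM in Ori, 273, 170 and 172 FPKM in D14FL, and 276, 125 and 394 FPKM in D30FL. It carried 49.1% to 75.1% of the summed AGR2 FPKM of a library, and its groups overlapped. Its change was -1.06 (SE 0.43, limma adjusted p = 0.359) for D14FL against Ori and -0.79 for D30FL against Ori. The sum over all 6 rows was 399, 369.7 and 687 FPKM in Ori, 475, 282 and 351 FPKM in D14FL, and 422, 253 and 575 FPKM in D30FL, with no call.

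AGR2 row DN32675_c3_g2 was called higher at day 14, but its split from the related row DN32675_c3_g1, described next, is uncertain. It had 14.4, 14.2 and 30.8 FPKM in Ori, 70.3, 43.1 and 63.7 FPKM in D14FL, and 39.9, 50.0 and 58.3 FPKM in D30FL. All 6 later fish were above all 3 Ori fish. The mean was 59.0 ± 14.2 FPKM in D14FL and 19.8 ± 9.52 FPKM in Ori (SD, n = 3 each), a change of 1.21 (SE 0.36, limma adjusted p = 0.0414), and D30FL, at 49.4 ± 9.22 FPKM, stood 0.98 (SE 0.36, limma adjusted p = 0.0590) above Ori, not called. The day 14 call was lost without any one of the Ori or D14FL libraries or D30FL 1 (adjusted p 0.0505 to 0.141) and under median-of-ratios scaling (adjusted p = 0.109).

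AGR2 row DN32675_c3_g1, which the assembler placed in the same cluster of related contigs, ran the other way. It had 38.6, 28.4 and 89.6 FPKM in Ori, 16.9, 7.11 and 20.6 FPKM in D14FL, and 21.2, 5.30 and 18.3 FPKM in D30FL. All later fish were below all Ori fish. The change was -2.08 (SE 0.57, limma adjusted p = 0.116) for D14FL against Ori and -2.14 (SE 0.57, limma adjusted p = 0.0984) for D30FL against Ori, neither called. Both DN32675 rows have the zebrafish Agr2 entry as their Swiss-Prot match and spotted gar AGR2 as their best protein match. Rows this alike may share reads, so their split is uncertain, and with it the call of DN32675_c3_g2. A change in the sum of the 2 rows was not tested.

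Within single libraries, where scaling cancels, the balance of the 2 rows differed between day 0 and later. DN32675_c3_g2 stood at 0.373, 0.499 and 0.343 times DN32675_c3_g1 in Ori, at 4.17, 6.06 and 3.09 times in D14FL, and at 1.89, 9.44 and 3.18 times in D30FL. Row c3_g1 was the higher of the pair in every Ori fish and the lower in every later fish. This ratio was formed after the values of both rows were seen and is given without a test.

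**Figure D3:**
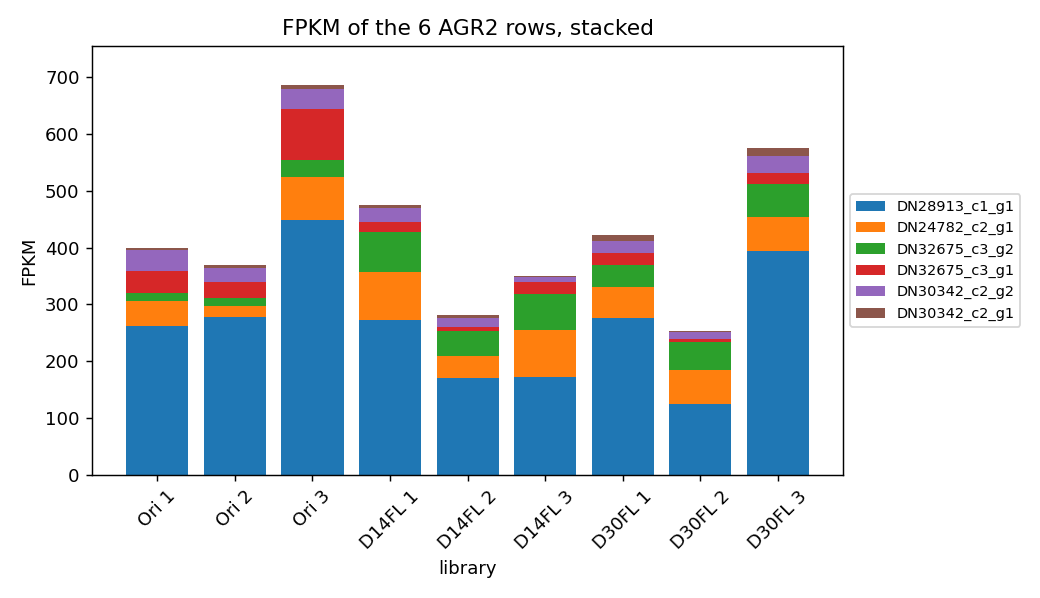
FPKM of the 6 AGR2 transcript rows stacked for each of the 9 libraries, so that bar height is their sum. Row DN28913_c1_g1 makes up 49.1% to 75.1% of each bar, and the segment of DN32675_c3_g2 exceeds that of DN32675_c3_g1 in the 6 later libraries and in no Ori library.

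The remaining AGR2 rows were not called and overlapped between groups. DN24782_c2_g1 averaged 46.9 ± 27.8 FPKM in Ori, 68.7 ± 25.2 FPKM in D14FL and 57.6 ± 3.08 FPKM in D30FL (SD, n = 3 each). DN30342_c2_g2 averaged 31.6 ± 7.25 FPKM in Ori, 16.5 ± 8.42 FPKM in D14FL and 21.2 ± 9.14 FPKM in D30FL, with a change of -1.37 (SE 0.43, limma adjusted p = 0.196) for D14FL against Ori. DN30342_c2_g1 ran from 1.35 FPKM in D30FL 2 to 13.6 FPKM in D30FL 3, a spread within 1 group that held all Ori values.

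FCGBP, a mucus protein thought to bind mucin multimers through its von Willebrand-like domains, was spread over 9 rows, of which only DN41876_c0_g2 averaged more than 10 FPKM. It had 46.0, 13.8 and 42.0 FPKM in Ori, 33.5, 21.6 and 32.2 FPKM in D14FL, and 5.69, 5.20 and 33.1 FPKM in D30FL. D30FL 1 and D30FL 2 were below every other fish, and D30FL 3 was within the Ori and D14FL ranges. The change was -1.84 (SE 0.63, limma adjusted p = 0.184) for D30FL against Ori and -1.39 (SE 0.63, unadjusted p = 0.0469, limma adjusted p = 1) for D30FL against D14FL, neither called. Without D30FL 3 the change against Ori was -2.72 (limma adjusted p = 0.0210). That fit called 6605 of all 53306 rows tested, against 1746 of 54200 with all libraries. The row was called in no fit that left out another single library.

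FCGBP row DN34061_c0_g1 had 6.53, 5.50 and 3.69 FPKM in Ori, 11.4, 3.47 and 13.4 FPKM in D14FL, and 2.18, 10.9 and 4.24 FPKM in D30FL, and its groups overlapped. DN35745_c0_g4, whose best protein match is unnamed and which holds a zona pellucida-like domain beside an IgGFc-binding one, had 0.05, 2.60 and 14.7 FPKM in Ori, 1.41, 1.04 and 1.20 FPKM in D14FL, and 1.07, 0.28 and 1.91 FPKM in D30FL. A single fish, Ori 3, set its Ori mean. The row DN22717_c0_g1 had 0.32, 0.11 and 0 FPKM in Ori, 1.41, 1.06 and 1.9 FPKM in D14FL, and 0.83, 2.95 and 0.56 FPKM in D30FL. All later fish were above Ori in DN22717_c0_g1, with a change of 0.72 (limma adjusted p = 0.162) for D14FL against Ori and 0.61 (limma adjusted p = 0.193) for D30FL against Ori. That separation too is partly set by the filter, which no Ori fish of this row reached.

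The other FCGBP rows, DN26336_c0_g1, DN3413_c0_g1, DN26336_c0_g2, DN43448_c0_g1 and DN45021_c0_g1, stayed under 5 FPKM in every library. DN26336_c0_g1 ran from 0.76 to 4.67 FPKM and DN3413_c0_g1 from 0 to 3.67 FPKM. DN26336_c0_g2 ran from 0 to 1.99 FPKM. DN43448_c0_g1 and DN45021_c0_g1 were listed at 0 in 4 and 6 libraries and reached 3.64 and 1.35 FPKM in D30FL 2. None of the 5 separated later fish from Ori.

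SPDEF, the goblet cell transcription factor, stood higher in all later fish but missed the threshold. Row DN38836_c0_g1 had 2.11, 1.37 and 2.58 FPKM in Ori, 13.2, 7.60 and 18.5 FPKM in D14FL, and 32.6, 7.85 and 7.03 FPKM in D30FL. The lowest later fish was above the highest Ori fish, and D30FL 1 was far above the other D30FL fish. It averaged 2.02 ± 0.610 FPKM in Ori, 13.1 ± 5.43 FPKM in D14FL and 15.8 ± 14.5 FPKM in D30FL (SD, n = 3 each). The change was 1.78 (SE 0.53, limma adjusted p = 0.0535) for D14FL against Ori and 1.79 (SE 0.53, limma adjusted p = 0.0503) for D30FL against Ori. Without any one D30FL library the day 14 change was called (limma adjusted p 0.0321 to 0.0387), and without any one Ori or D14FL library it was not (0.0859 to 0.150). The day 30 change was called without D30FL 3 (2.08, limma adjusted p = 0.0230) and without any one of the other libraries it was not (0.0558 to 0.148), and it was 1.14 without D30FL 1. The row matched its KEGG entry over 251 of 347 residues (72.3%) with Ets and Pointed domains, so its annotation is clearer than that of the MUC5B rows.

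Counted by overlap alone, later and Ori fish were apart in no larger a share of member rows than of all rows. In D14FL 6 of the 22 tested rows (27.3%) had all fish above Ori, where 27.8% of all tested rows did, and 1 row (4.55%) had all fish below, where 6.70% did. In D30FL 4 rows (18.2%) were above Ori, against 20.8% of all tested rows, and 1 (4.55%) was below, against 6.14%. Those above at both times were MUC5B row DN19426_c0_g1, AGR2 row DN32675_c3_g2, FCGBP row DN22717_c0_g1 and SPDEF, and AGR2 row DN32675_c3_g1 was below at both. Of these counts, DN22717_c0_g1 at both times and DN32938_c0_g1 at day 14 are the rows that entered the test only through later fish. Both comparisons share the Ori fish. No row was above D14FL in all D30FL fish, where 3.83% of all tested rows were.

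Single fish weighed on several members. D30FL 2 held the highest value of 8 of the 25 rows. Ori 2 held the lowest value of 10 rows, a count that leaves out rows where more than a single library was listed at 0. How often these libraries were highest or lowest over all rows was not counted, so this may not be particular to the members. The colour plot of the 25 rows shows D30FL 2 at the top for MUC2 row DN32938_c0_g1, both WxxW rows of MUC5B and 5 low FCGBP rows. D30FL 2 was the lowest for AGR2 rows DN28913_c1_g1, DN32675_c3_g1 and DN30342_c2_g1 and for FCGBP row DN41876_c0_g2.

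**Figure D4:**
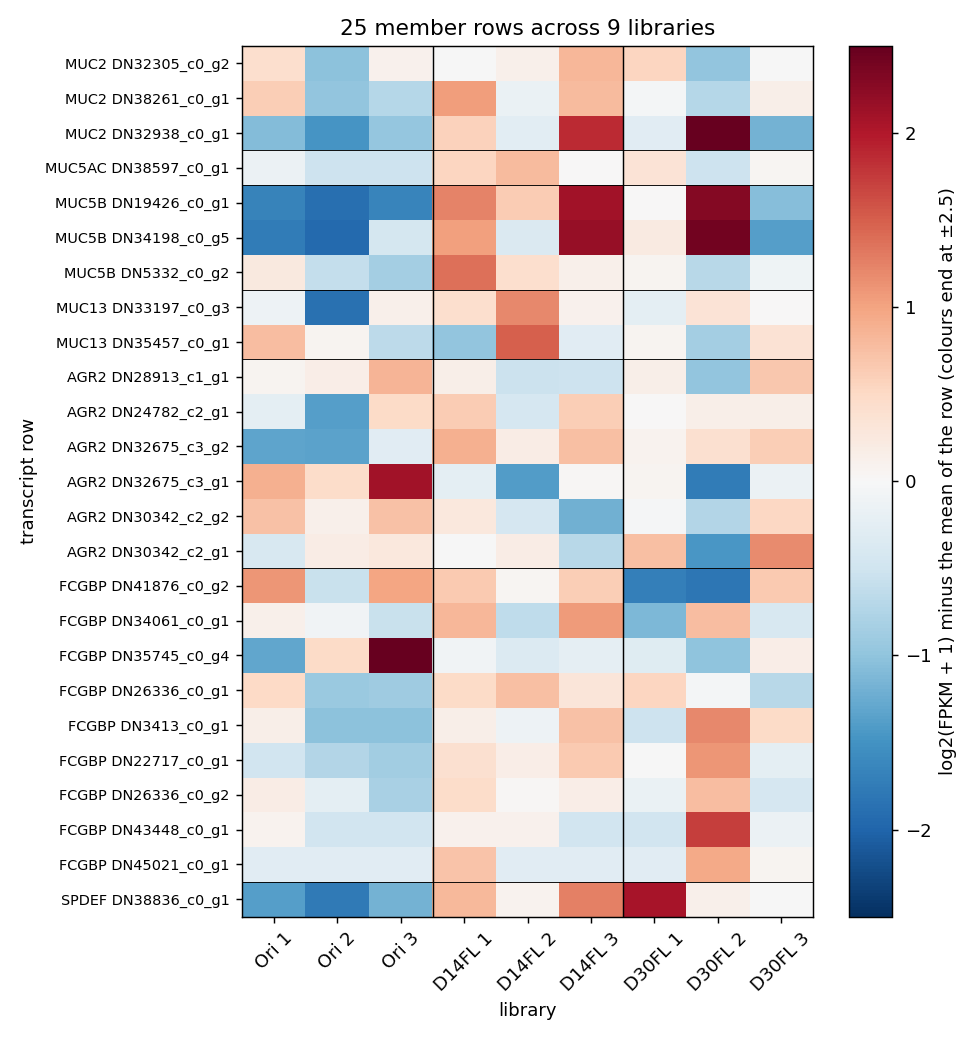
Log2(FPKM + 1) of each of the 25 transcript rows in each of 9 libraries, centred on the mean of the row, with red above and blue below that mean and colours ending at 2.5 log2 units. MUC5B rows DN19426_c0_g1 and DN34198_c0_g5 are blue in the Ori libraries and in D30FL 3, and deepest red in D14FL 3 and D30FL 2.

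The wider set of mucus genes was read through 4 lists, in which 68 of the listed symbols were found and 67 tested. In D14FL against Ori 3 were called higher and none lower (4.48%, with 2.77% called in either direction over all rows), and 23 (34.3%) had an unadjusted p under 0.05, with 23.1% of all tested rows. In D30FL against Ori and in D30FL against D14FL none was called by limma, with 21 (31.3%) and 4 (5.97%) at an unadjusted p under 0.05, where 24.0% and 3.84% of all tested rows were. MUC1, VSIG2, GALNT1, B3GNT7 and ANO1 had no Ori library at 1 FPKM or more and were tested only through the later fish, so 2 of the 3 calls, MUC1 and B3GNT7, are partly set by the filter. The 3 were called in none of the fits with an Ori or a D14FL library left out. Only the row of highest mean FPKM was read for each symbol. MUC1 had 1 row, KLF4 2 and B3GNT7 3, and the other rows were not examined. The lists, like the members, were chosen with earlier results of these data known, so shares of them only describe the lists.

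Among other mucus and goblet cell genes, 11 of 30 were found, with a median change of 0.22 for D14FL against Ori and -0.41 for D30FL against Ori. MUC1, a membrane mucin, was called: 3.75 ± 1.08 FPKM in D14FL and 0.214 ± 0.0279 FPKM in Ori (SD, n = 3 each), a change of 1.55 (SE 0.43, limma adjusted p = 0.0393). MEP1B, a brush border protease (meprin beta) that releases MUC2 from the epithelium in mouse, averaged 116 ± 31.3 FPKM in Ori, 175 ± 41.1 FPKM in D14FL and 65.8 ± 13.8 FPKM in D30FL, and was not called. All D30FL fish were below D14FL in MEP1B, and below Ori by a narrow margin. CLCA1, a metalloprotease of goblet cell mucus, averaged 110 ± 58.3 FPKM in D30FL and 35.3 ± 9.41 FPKM in Ori, and all D30FL fish were above Ori (1.11, SE 0.71, limma adjusted p = 0.225). In D14FL it averaged 99.1 ± 89.3 FPKM and overlapped Ori (limma adjusted p = 0.434). NLRP6, an inflammasome sensor linked to goblet cell secretion in mouse, averaged 2.49 ± 1.17 FPKM in D30FL and 9.61 ± 6.43 FPKM in Ori (limma adjusted p = 0.0958), with all D30FL fish below Ori. All D14FL fish were below Ori in NLRP6 too, at 2.94 ± 0.954 FPKM (limma adjusted p = 0.141).

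Among mucin glycosylation genes, 21 of 35 were found, with a median change of 0.32 for D14FL against Ori and 0.17 for D30FL against Ori. B3GNT7, which extends sugar chains with N-acetylglucosamine, was called at day 14, with 5.73 ± 3.33 FPKM in D14FL and 0.394 ± 0.306 FPKM in Ori (SD, n = 3 each), a change of 1.78 (SE 0.50, limma adjusted p = 0.0446). At day 30 it stood 1.27 above Ori (SE 0.50, limma adjusted p = 0.0855). No Ori library of B3GNT7 reached 1 FPKM, so its day 14 call too is partly set by the filter. SLC35A1, the carrier of activated sialic acid into the Golgi, had 24.4, 89.4 and 22.01 FPKM in D30FL, against 14.2, 9.54 and 13.8 FPKM in Ori, without a call. D30FL 2 sets that D30FL mean, and it does so for CHST6 too. CHST6, a sulfotransferase, had 21.2, 68.2 and 10.02 FPKM in D30FL, against 7.59, 7.49 and 10.5 FPKM in Ori, and D30FL overlapped Ori (limma adjusted p = 0.134). All D14FL fish were above Ori in CHST6, at 41.1, 34.1 and 28.8 FPKM, without a call.

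Among genes of folding, granule release and salt transport, 18 of 28 were found and 17 tested, with medians of -0.05 and -0.19 for D14FL and D30FL against Ori and no call. XBP1, a transcription factor of the secretory pathway, averaged 103 ± 13.7 FPKM in Ori, 203 ± 38.8 FPKM in D14FL and 206 ± 32.7 FPKM in D30FL (SD, n = 3 each), all later fish above Ori, at limma adjusted p = 0.0760 for D30FL and 0.0881 for D14FL. For the disulfide isomerases PDIA3 and PDIA4 no change was called. PDIA3 averaged 59.3 ± 34.4 FPKM in D30FL and 135 ± 4.89 FPKM in Ori (limma adjusted p = 0.0926), with all D30FL fish below Ori. All D14FL fish were below Ori in PDIA3 too, at 55.0, 50.6 and 44.2 FPKM. PDIA4 averaged 41.8 ± 10.6 FPKM in Ori, 14.1 ± 5.08 FPKM in D14FL and 25.0 ± 14.6 FPKM in D30FL, with all D14FL fish below Ori (limma adjusted p = 0.0864) and D30FL overlapping it (limma adjusted p = 0.257). MYO5B, a motor of apical vesicle transport, had 5.31, 1.33 and 10.4 FPKM in D30FL, against 60.7, 13.1 and 12.2 FPKM in Ori, where Ori 1 sets the mean (limma adjusted p = 0.105). ANO1, a chloride channel, averaged 4.30 ± 2.36 FPKM in D14FL and 0.666 ± 0.356 FPKM in Ori (limma adjusted p = 0.0586).

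Among secretory lineage regulators, 18 of 26 were found, with medians of 0.07 and -0.10. KLF4, a transcription factor of goblet cell differentiation in mouse colon, was called at day 14, with 12.2 ± 1.59 FPKM in D14FL and 2.95 ± 0.977 FPKM in Ori (SD, n = 3 each), a change of 1.38 (SE 0.38, limma adjusted p = 0.0357). At day 30 it averaged 8.69 ± 4.13 FPKM (0.87 above Ori, SE 0.38, limma adjusted p = 0.0859). HES1, a Notch target that holds cells in the absorptive lineage, averaged 10.1 ± 5.25 FPKM in D30FL and 30.3 ± 2.76 FPKM in Ori, all D30FL fish below Ori (-1.96, SE 0.52, limma adjusted p = 0.105). In D14FL it had 26.7, 36.9 and 7.04 FPKM and overlapped Ori. IL22RA1, a receptor subunit for interleukin 22, averaged 42.3 ± 25.6 FPKM in D30FL and 14.9 ± 4.21 FPKM in Ori (limma adjusted p = 0.0922). It averaged 42.9 ± 8.36 FPKM in D14FL.

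**Figure D5:**
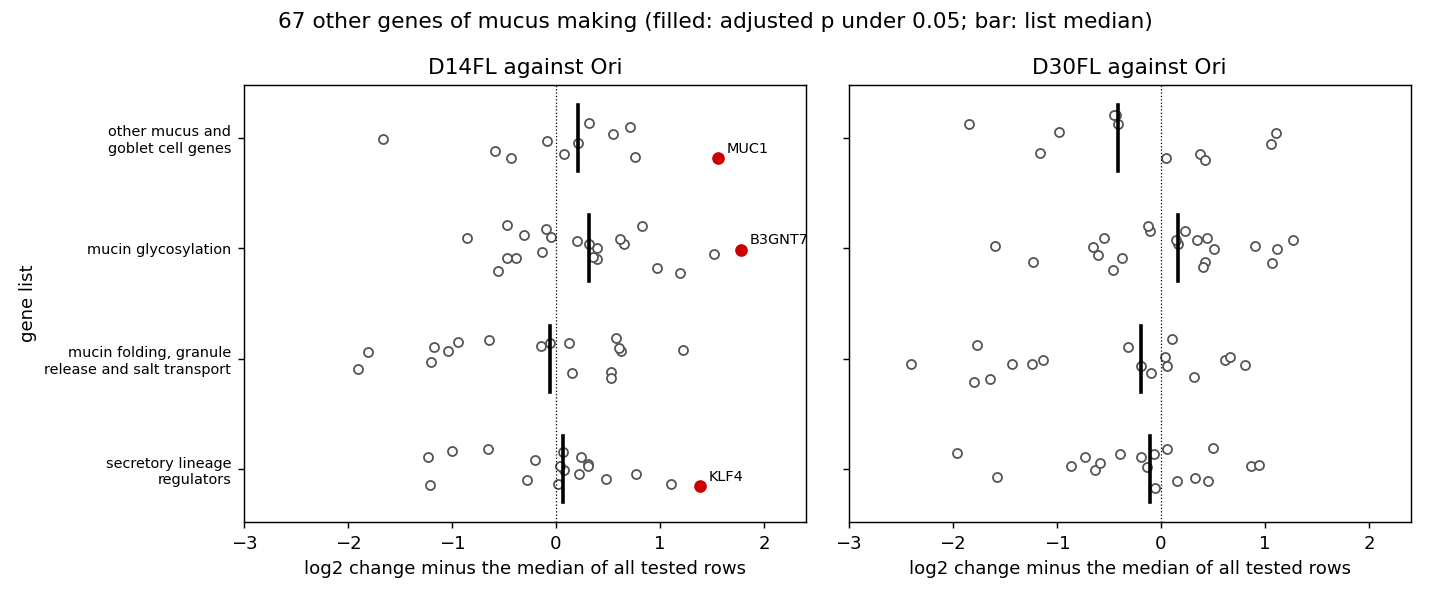
Log2 change of 67 other genes of mucus making, after subtraction of the median of all tested rows, in 4 lists, for D14FL against Ori (left) and D30FL against Ori (right), with the list median as a bar and vertical scatter for legibility only. The 3 filled points with an adjusted p under 0.05 are MUC1 at 1.55, B3GNT7 at 1.78 and KLF4 at 1.38, all for D14FL against Ori.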

How the data were processed

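Poly(A) RNA of gut tissue was measured in 9 libraries of 9 fish. The deposited values are FPKM per transcript row, per the file headers and the name; a filtered TPM list could not be told from it. Cutadapt 1.9 and mm10, a mouse build, are named in the submitters' processing notes without a role, and no step here uses either. The quantifier is not given in the sources used here, nor is the assembler or the depth, though row names have the form of Trinity output; no reads were recovered. The number of fish limits the precision. Contig names are shortened by the isoform ending.

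Of the 59331 rows, the 54200 that passed the filter entered a single fit. The tool limma 3.58.1 (trend, 6 residual and 5.73 prior degrees of freedom) in R 4.3.3 was fitted to all 9 libraries without a block, with data.table (version 1.17.8), and checked on simulated data. Python 3.11.15, pandas 2.3.3, numpy 2.4.6 and matplotlib 3.10.9 handled tables and plots. For a listed gene the row of highest mean FPKM stands for the symbol. Text names every member row and, per list, the called genes (up to 8) and otherwise 3 with the smallest p, of which a part is printed. Alternatives were other pseudocounts, filters, scalings, a block, fits on 2 groups, no trend, summed rows and each library left out. Members and lists were chosen with earlier results of these data known. Same-numbered fish deviated together at correlations of only -0.315 to 0.0843, so replicate numbers were not taken as pairs.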

Additional observations from a re-analysis of the deposited data

How the results depend on the processing

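The call of 2 member rows in D14FL against Ori became 1 with a pseudocount of 0.01 or with rows of a symbol summed (MUC5B, 6 symbols tested), and 0 under median-of-ratios scaling, quantile scaling, no variance trend or the replicate block, whose numbers share only a number. Of that MUC5B sum, row DN19426_c0_g1, with the KEGG name MUC2, made up 66.4% to 93.8% in each library. Row DN5332_c0_g2, which matches Mucin-5B of the sterlet, made up 0% to 23.0%. The count of 2 became 3 with a pseudocount of 0.1, with a mean FPKM of at least 5 or with only the 2 groups compared. Without single libraries it ran from 0 to 3. In D30FL against Ori the count of 0 became 1 with a pseudocount of 0.1 (SPDEF). It became 2 with a mean FPKM of at least 5 (SPDEF and AGR2 row DN32675_c3_g2). Without single libraries the day 30 count ran from 0 to 3. It was 3 only without D30FL 3 (MUC5B row DN19426_c0_g1 and SPDEF higher, FCGBP row DN41876_c0_g2 lower). That was 3 of 22 member rows, in a fit that called 6605 of all 53306 rows tested. With a mean FPKM of at least 5, 15 member rows were tested. Of all 19743 rows in that setting, 1620 were called at day 14 and 1802 at day 30. The 3 listed genes called at day 14 became 1 with a pseudocount of 0.01 or a mean FPKM of at least 5, 0 under median-of-ratios or quantile scaling or the replicate block, and 8 with only the 2 groups compared, and ran from 0 to 10 without single libraries. With a mean FPKM of at least 5, MUC1 and B3GNT7 were removed by the filter and not tested, at means of 1.72 and 3.24 FPKM. At day 30 the listed count ran from 0 to 11, with 11 (of 67 tested) only without D30FL 3, the fit with 6605 rows called. D30FL against D14FL gave 0 member rows and 0 listed genes in every setting. The member rows and listed genes called at day 14 changed sign in no setting. The cause was not tested.

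Over all tested rows limma called 1501 rows at day 14 and 1746 at day 30, of which 78.3% and 77.3% were higher. Median-of-ratios scaling called 1087 and 1273, of which 40.5% and 43.2% were higher, quantile scaling 897 and 937, of which 43.3% and 41.6% were higher, the replicate block 315 and 357, and fits on the 2 groups alone 3335 and 507. The majority direction over all rows therefore turned under both scalings. Without single libraries the counts ran from 138 to 3763 at day 14 and from 98 to 6605 at day 30. The highest counts were those without D30FL 2 (3763) and without D30FL 3 (6605).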

Other observations

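A further 20 rows are named for a mucin, an anterior gradient protein or an IgGFc-binding protein without being members. Among them 3 rows are annotated as MUC3B, a membrane mucin of the human intestine. MUC3B row DN38078_c0_g1 had 3.24, 1.66 and 1.58 FPKM in Ori, 12.2, 11.8 and 16.1 FPKM in D14FL, and 10.7, 17.5 and 5.16 FPKM in D30FL. All later fish were above Ori, and the row was called higher at both times, with changes of 1.83 (SE 0.42, limma adjusted p = 0.0253) for D14FL and 1.47 (SE 0.42, limma adjusted p = 0.0417) for D30FL against Ori. Over all tested rows 2.17% were called higher at day 14 and 2.49% at day 30. The calls of DN38078_c0_g1 were not followed under other scalings or without single libraries, so how far they hold is not known. The best protein match of DN38078_c0_g1 is an uncharacterised amphibian protein. MUC3B row DN34120_c0_g1 was not called, with changes of 0.12 (SE 0.49) for D14FL and -0.41 (SE 0.49) for D30FL against Ori. The most abundant MUC3B row, DN37928_c0_g1, averaged 44.3 ± 12.02 FPKM in Ori, 94.2 ± 43.8 FPKM in D14FL and 68.8 ± 24.1 FPKM in D30FL (SD, n = 3 each) and was not called. These rows were looked up after the member values had been seen.

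By the root mean square difference of centred log2(FPKM + 1) over the 9 libraries, among 8662 named rows with a mean of at least 5 FPKM, the nearest to MUC5B row DN19426_c0_g1 were thioredoxin-interacting protein (0.326), patatin-like phospholipase domain-containing protein 2 (0.342) and SPSB3 (0.348). That row's own root mean square is 1.56. For SPDEF, with 1.20 of its own, the nearest were GADD45 beta (0.423), P3H2 (0.494) and CEP72 (0.496). For FCGBP row DN41876_c0_g2, with 1.05 of its own, the nearest was glutathione hydrolase 7 (0.258).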
